A study of Mus musculus with 6 samples.

Results

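The genes described here are 10 C-type lectin receptors of myeloid cells, chosen by name: Clec4a1, Clec4a2, Clec4a3, Clec4b1, Clec4d, Clec4e, Clec4n, Clec5a, Clec7a and Clec12a. All 10 are among the 21358 entries of the expression table, and all 10 are among the 14172 genes that passed the filter on low values. That filter was a mean of 0.1 or more over the 6 tumors in FPKM, which is reads scaled by exon length and by the mapped reads of the library. RNA-seq was done on whole B16-F10 tumors, a mouse melanoma line, taken at day 12 from 3 mice given adoptive cell transfer (ACT) with IL-2 and from 3 mice given ACT with NKTR-214, an IL-2 prodrug that carries releasable polyethylene glycol chains. Both groups were female C57BL/6J mice aged 6 to 8 weeks, which shared 500 cGy of total body irradiation, tumors of at least 150 cubic mm at the start, and transferred splenocytes of pmel-1 mice, whose CD8 T cells carry a transgenic receptor for the melanoma antigen gp100. IL-2 was given at 0.4 mg/kg in 3 doses per cycle and NKTR-214 at 0.8 mg/kg in 1 dose per cycle of 9 days, IL-2 into the peritoneum and NKTR-214 into a vein, so that agent, dose, schedule and route differ together between the groups. Neither group lacked ACT or cytokine, and each tumor came from a different mouse.

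C-type lectin receptors bind sugars and other ligands on microbes and on dying cells, and most of those described here sit on macrophages, monocytes, neutrophils and dendritic cells. The activating receptors signal through the kinase SYK, which they reach by a tyrosine motif of their own (Clec7a, known as dectin-1) or by the adaptor chains FcRgamma (the product of Fcer1g; used by Clec4n, Clec4e, Clec4d and Clec4b1) and DAP12 (the product of Tyrobp; used by Clec5a), and CARD9, BCL10 and MALT1 carry the signal on to NF-kappaB. The inhibitory receptors, such as Clec4a2 and Clec12a, carry an ITIM, a tyrosine motif that recruits phosphatases.

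All 10 genes lie on chromosome 6 of GRCm38 in the GENCODE vM21 annotation. Of these, 7 lie in a cluster that runs from Clec4a1 (122921848 to 122934619, plus strand) through Clec4a3, Clec4b1, Clec4a2, Clec4n and Clec4d to Clec4e (123281789 to 123289870, minus strand). Clec12a (129342691 to 129365303, plus strand) and Clec7a (129461591 to 129472779, minus strand) lie together further along, and Clec5a (40574894 to 40585821, minus strand) lies apart. GENCODE types Clec7a as a polymorphic pseudogene, and its longest annotated coding sequence encodes 244 residues. No exon of the 10 genes overlaps an exon of another gene. Of the 50-base windows of the Clec4b1 transcripts, 8.68% also occur in Clec4a2 and in no other gene, and of those of Clec4a2 itself 6.83% occur in other genes, so that reads from these stretches cannot be assigned to 1 gene. The share is below 1% for the other members.

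The promoters of 4 members are shown, those of Clec7a, which had the largest fold change, of Clec4e and Clec12a, which held both motifs searched, and of Clec4b1, which did not pass the test. RefSeq windows (GRCm38.p6) were found for 9 of the 10 members, without Clec4n. The 250 bases before the start were searched on both strands for GAGGAA, the core bound by the myeloid factor PU.1, and for TTGCNNAA, a C/EBP-like motif; matches are in capitals, and TTCCTC is GAGGAA on the opposite strand. The promoter of Clec7a lies at chr6:129472780-129473029 (minus strand), that of Clec4e at chr6:123289872-123290121 (minus strand), that of Clec12a at chr6:129349994-129350243 (plus strand) and that of Clec4b1 at chr6:123049712-123049961 (plus strand), each printed 5′ to 3′ on the strand of its gene. The starts that RefSeq lists for Clec12a and Clec4a2 lie well inside the spans GENCODE gives these genes, so their windows do not precede the GENCODE starts.
Clec7a: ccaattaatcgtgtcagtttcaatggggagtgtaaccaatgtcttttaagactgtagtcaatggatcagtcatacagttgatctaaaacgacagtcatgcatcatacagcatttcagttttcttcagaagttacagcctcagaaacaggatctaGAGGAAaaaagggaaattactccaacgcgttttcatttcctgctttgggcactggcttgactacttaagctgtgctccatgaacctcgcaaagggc
Clec4e: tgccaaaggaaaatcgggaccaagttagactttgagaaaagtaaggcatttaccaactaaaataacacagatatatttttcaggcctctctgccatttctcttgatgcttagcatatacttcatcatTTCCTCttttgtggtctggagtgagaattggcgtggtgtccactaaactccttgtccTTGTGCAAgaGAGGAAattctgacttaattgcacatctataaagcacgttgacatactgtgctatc
Clec12a: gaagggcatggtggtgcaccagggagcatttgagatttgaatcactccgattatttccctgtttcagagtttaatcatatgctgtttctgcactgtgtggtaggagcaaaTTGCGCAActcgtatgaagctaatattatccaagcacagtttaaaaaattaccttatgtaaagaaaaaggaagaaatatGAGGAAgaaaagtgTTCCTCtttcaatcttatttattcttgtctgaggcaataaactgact
Clec4b1: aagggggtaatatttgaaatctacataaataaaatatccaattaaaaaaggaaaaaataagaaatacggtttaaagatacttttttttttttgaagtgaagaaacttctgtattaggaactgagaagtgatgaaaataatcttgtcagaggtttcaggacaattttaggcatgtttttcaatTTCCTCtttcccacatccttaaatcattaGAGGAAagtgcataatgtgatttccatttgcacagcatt

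GAGGAA was present in 7 of the 9 windows, against 23.1% of 27018 mouse promoters of the same length, and was not found in those of Clec4a2 and Clec4a3. It began 96 bases before the start of Clec7a, 56 and 123 bases before that of Clec4e, 61 and 47 bases before that of Clec12a, and 39 and 68 bases before that of Clec4b1. TTGCNNAA was present in the windows of Clec4e and Clec12a, against 9.56% of promoters. Clec4b1, which did not pass the test described next, held GAGGAA as often as Clec12a, which did. A match describes the letters of the window and not a bound site.

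The question of the comparison was which of these receptors differed between tumors of mice given NKTR-214 and tumors of mice given IL-2. With limma on log2(FPKM + 1), 9 of the 10 members were higher in the ACT + NKTR-214 tumors at an adjusted p under 0.05, and Clec4b1 was not called. The members called numbered 6 without ACT + IL-2 replicate 2 and 0 without moderation of the variance, where 7 were higher at an unadjusted p under 0.05 and the adjusted p of Clec7a was 0.0506. No member was lower, also at an unadjusted p. Among all genes tested, 20.7% were higher and 8.28% were lower. The lower calls depend on the scaling, with 1173 genes as reported and 3864, 4526 and 4439 under 75th percentile scaling, quantile normalization and a common total (TPM), where the higher calls numbered 3167, 2681 and 2911 against 2940. For 8 members every ACT + NKTR-214 tumor lay above every ACT + IL-2 tumor, a pattern that 27.1% of all tested genes showed. The median log2 fold change was 1.51 over the 10 members and 0.05 over all genes tested. In whole tumors, more cells of a type and more RNA per cell cannot be told apart. Estimates from the steps of low FPKM values put the depth between 20900000 and 24700000 mapped reads per library, which gives between 40 and 5034 reads per tumor for each member other than Clec4b1.

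**Figure D1:**
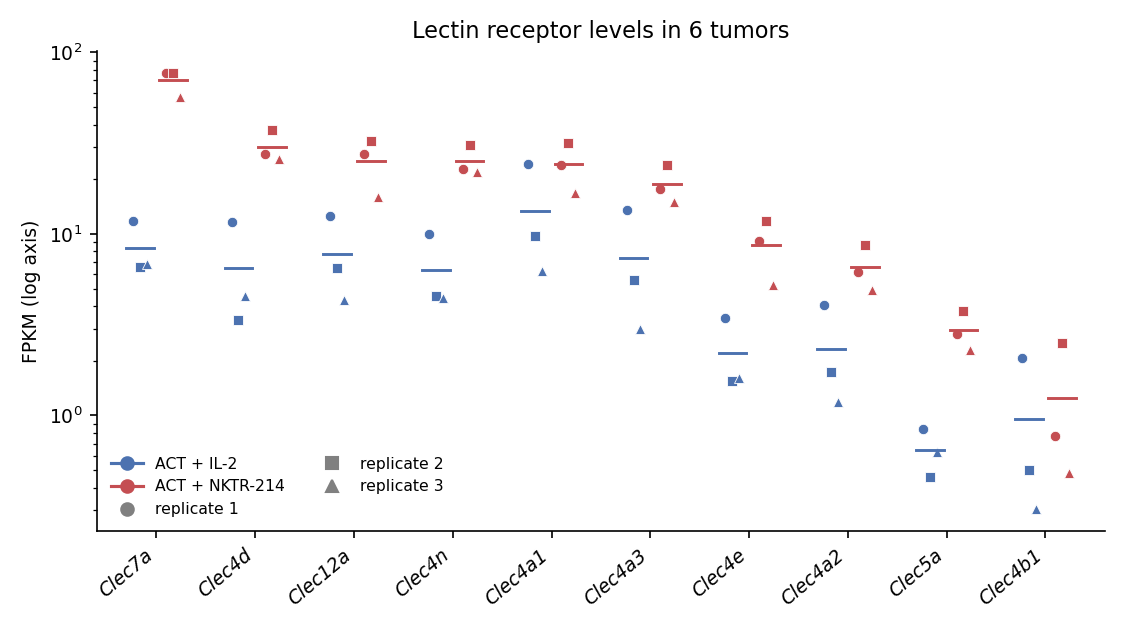
FPKM of each of the 10 lectin receptors in each tumor, on a log axis, with points for single tumors and bars for the group means, ACT + IL-2 beside ACT + NKTR-214. The groups are apart for 8 genes and overlap for Clec4a1 and Clec4b1, and replicate 1 is the highest ACT + IL-2 tumor for every gene.

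Clec7a, the receptor for fungal beta-glucan, had the highest fold change of the members. Its FPKM was 11.8, 6.59 and 6.80 in the ACT + IL-2 tumors and 77.4, 76.6 and 56.9 in the ACT + NKTR-214 tumors. The groups were far apart, with the lowest ACT + NKTR-214 tumor well above the highest ACT + IL-2 tumor. The mean rose from 8.40 ± 2.95 to 70.3 ± 11.6 (SD, n = 3 per group), a ratio of 8.37. The log2 fold change was 2.95 with a standard error of 0.20 and a 95% interval from 2.53 to 3.37 (limma adjusted p = 6.13e-08), which ranked 54 of the 14172 genes. Clec7a made up 12.5, 16.3 and 20.5% of the summed FPKM of the 10 members in the ACT + IL-2 tumors, and 35.9, 29.5 and 34.5% in the ACT + NKTR-214 tumors, again without overlap.

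Clec4d, Clec4n and Clec4e, receptors that signal through FcRgamma, also rose. Clec4d (MCL), which pairs with Clec4e and binds mycobacterial glycolipid, measured 11.7, 3.36 and 4.57 FPKM with IL-2 and 27.5, 37.3 and 25.7 FPKM with NKTR-214. Its log2 fold change was 2.19 ± 0.28 (SE; limma adjusted p = 2.90e-05). Clec4n (dectin-2), a receptor for mannans, measured 10.01, 4.55 and 4.45 FPKM with IL-2 and 22.7, 31.0 and 21.9 FPKM with NKTR-214. For both genes the ACT + IL-2 tumor of replicate 1 stood above the others of its group and still below every ACT + NKTR-214 tumor. The log2 fold change of Clec4n was 1.90 ± 0.23 (SE; limma adjusted p = 1.51e-05). Clec4e (Mincle), which recognises trehalose dimycolate and the nuclear protein SAP130 of dead cells, measured 3.46, 1.54 and 1.61 FPKM with IL-2 and 9.17, 11.7 and 5.20 FPKM with NKTR-214. Its log2 fold change was 1.59 ± 0.25 (SE; limma adjusted p = 0.00018). For all 10 members, ACT + NKTR-214 replicate 3 was the lowest tumor of its group.

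Clec5a (MDL-1), which signals through DAP12, had the lowest group mean of the members in the ACT + IL-2 tumors, at 0.846, 0.458 and 0.627 FPKM, a range that overlapped with that of Clec4b1, and measured 2.81, 3.77 and 2.31 FPKM in the ACT + NKTR-214 tumors. The groups did not overlap. Its log2 fold change was 1.26 ± 0.15 (SE; limma adjusted p = 1.44e-05). Since its level lies near the pseudocount of 1, this scale understates the change, and with a pseudocount of 0.1 the log2 fold change was 2.05. The ratio of its group means was 4.61, close to the 4.62 of Clec4d.

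The inhibitory receptors rose as well. Clec12a (MICL), an ITIM receptor that binds uric acid crystals, measured 12.5, 6.47 and 4.33 FPKM with IL-2 and 27.5, 32.6 and 15.9 FPKM with NKTR-214. Its log2 fold change was 1.64 ± 0.28 (SE; limma adjusted p = 0.000415). Clec4a2 (DCIR), an ITIM receptor of dendritic cells and macrophages, measured 4.05, 1.74 and 1.19 FPKM with IL-2 and 6.13, 8.69 and 4.93 FPKM with NKTR-214. Neither gene overlapped between the groups. The log2 fold change of Clec4a2 was 1.25 ± 0.26 (SE; limma adjusted p = 0.00153), and without ACT + IL-2 replicate 2 its adjusted p was 0.06026. In the proteins translated from GENCODE, an ITIM within the first 20 residues was found in these members alone, beginning at residue 5 in both, against 1.96% of all proteins.

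The relatives of DCIR moved less evenly. Clec4a3 (DCIR3) measured 13.6, 5.57 and 2.98 FPKM with IL-2 and 17.7, 24.0 and 15.1 FPKM with NKTR-214, with no overlap. Its log2 fold change was 1.43 ± 0.32 (SE; limma adjusted p = 0.00332), and the adjusted p was 0.08928 without ACT + IL-2 replicate 2 and 0.0546 with no filter on low values. Clec4a1 (DCIR4) measured 24.4, 9.69 and 6.26 FPKM with IL-2 and 24.0, 31.8 and 16.8 FPKM with NKTR-214. Here ACT + IL-2 replicate 1 lay above 2 of the ACT + NKTR-214 tumors. The log2 fold change of Clec4a1 was 0.96 ± 0.33 (SE; limma adjusted p = 0.0384), and the call was lost under 8 of 15 alternatives, among them the leaving out of ACT + IL-2 replicate 2 (adjusted p = 0.2498) or replicate 3 (adjusted p = 0.1441). With 1 tumor left out its log2 fold change ranged from 0.57 (without ACT + IL-2 replicate 3) to 1.47 (without ACT + IL-2 replicate 1).

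Clec4b1 (DCAR), an activating relative that uses FcRgamma, measured 2.08, 0.499 and 0.304 FPKM with IL-2 and 0.772, 2.50 and 0.481 FPKM with NKTR-214. High and low tumors occurred in both groups, and the values rest on about 39, 9 and 5 reads with IL-2 and 15, 48 and 9 with NKTR-214. Its log2 fold change was 0.20 ± 0.29 (SE; limma adjusted p = 0.651). It was called higher without ACT + IL-2 replicate 1 (0.58, limma adjusted p = 0.0001249) and without ACT + NKTR-214 replicate 3 (0.45, limma adjusted p = 0.007535). In both fits its values still overlapped between the groups, and the p-values rest on a variance moderated over all genes. The sign of Clec4b1 turned without ACT + NKTR-214 replicate 2 (-0.17), so 1 tumor decides its direction.

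**Figure D2:**
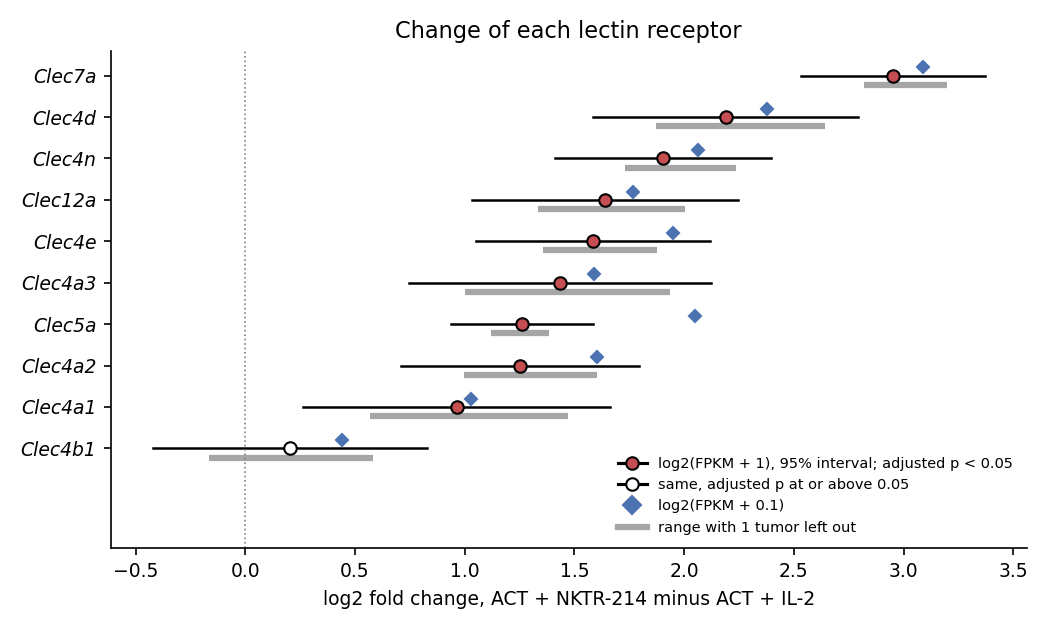
Log2 fold change of each member, ACT + NKTR-214 minus ACT + IL-2, on the log2(FPKM + 1) scale with its 95% interval (circles and lines), on the log2(FPKM + 0.1) scale (diamonds), and its range when 1 tumor is left out (grey bars). Clec7a stands highest at 2.95, Clec4b1 is the member whose interval includes 0, and Clec5a moves most with the pseudocount.

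The order of the levels, which FPKM gives per exon length, differed between the groups. In the ACT + IL-2 tumors Clec4a1 had the highest mean FPKM (13.4 ± 9.61), followed by Clec7a, Clec12a (7.77 ± 4.24), Clec4a3 (7.37 ± 5.51), Clec4d (6.53 ± 4.48) and Clec4n (6.34 ± 3.18), and neighbours in this order overlapped over the 3 tumors. Clec4a2 (2.33 ± 1.52), Clec4e (2.21 ± 1.09), Clec4b1 (0.959 ± 0.971) and Clec5a (0.643 ± 0.195) were lower. In the ACT + NKTR-214 tumors Clec7a led and lay apart from the next gene, Clec4d (30.2 ± 6.21). Clec12a (25.3 ± 8.56), Clec4n (25.2 ± 5.06), Clec4a1 (24.2 ± 7.48) and Clec4a3 (18.9 ± 4.60) followed with overlapping ranges. Clec4e (8.70 ± 3.28), Clec4a2 (6.58 ± 1.92), Clec5a (2.96 ± 0.745) and Clec4b1 (1.25 ± 1.09) came last. Clec4a1 thus stood at the top of the order with IL-2 and in the middle with NKTR-214, while the order itself was not tested.

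Since these receptors are carried by myeloid cells, each was also set against 10 macrophage and monocyte markers (Csf1r, Cd68, Adgre1, Itgam, Cd14, Fcgr1, Mertk, Lyz2, Ly6c2 and Ccr2) in the same tumor. All 10 markers were called higher in ACT + NKTR-214, against 20.7% of all genes tested. Their summed FPKM ranged from 214 to 580 with IL-2 and from 1100 to 2008 with NKTR-214. Their log2 fold changes were unequal, from 0.95 (Adgre1) to 3.99 (Ly6c2), so Ly6c2 rose more than Clec7a (2.95). Their mean log2(FPKM + 1) was 4.50, 3.58 and 3.32 with IL-2 and 5.70, 6.13 and 5.35 with NKTR-214, a difference of 1.93. Clec7a minus this mean was -0.82, -0.65 and -0.36 with IL-2 and 0.59, 0.15 and 0.51 with NKTR-214. Clec7a was the member that rose beyond the marker mean without overlap, by 1.03. Its exact two-sided permutation p was 0.1, the smallest that 3 against 3 tumors allow (0.143 after Benjamini-Hochberg adjustment over 10 members). The difference for Clec7a ranged from 0.59 against Ptprc, the pan-leukocyte gene, to 1.33 against Csf1r alone.

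No other member lay above the marker mean without overlap. Clec4d differed from the marker mean by 0.26 and Clec4n by -0.02, and both overlapped between the groups (exact permutation p = 0.6 and 0.8). Clec12a differed by -0.29 (exact permutation p = 0.2). Relative to the marker mean Clec4e (-0.34), Clec4a3 (-0.49), Clec5a (-0.67), Clec4a2 (-0.67), Clec4a1 (-0.96) and Clec4b1 (-1.72) were lower with NKTR-214. For each of them every ACT + NKTR-214 tumor lay below every ACT + IL-2 tumor, at the smallest exact permutation p of 0.1. The separation was lost for 3 of these genes under other settings. With a pseudocount of 0.1 the difference was -0.10 for Clec4e, -0.0046 for Clec5a and -0.46 for Clec4a3 (exact permutation p = 0.7, 1 and 0.2). Against Csf1r alone it was -0.035 for Clec4e, -0.36 for Clec5a and -0.19 for Clec4a3 (exact permutation p = 1, 0.5 and 0.4), while Clec4d lay above Csf1r without overlap, by 0.57. Against Ptprc the groups were apart for all 6, with larger differences such as -0.77 for Clec4e and -1.10 for Clec5a, and also for Clec4n (-0.46) and Clec12a (-0.72), which had overlapped against the marker mean. The marker Adgre1 rose by a log2 fold change of 0.95, less than Clec4e (1.59), Clec4a3 (1.43), Clec5a (1.26) and Clec4a2 (1.25). Ly6c2 rose by 3.99, more than any member, so the result depends on the marker used.

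**Figure D3:**
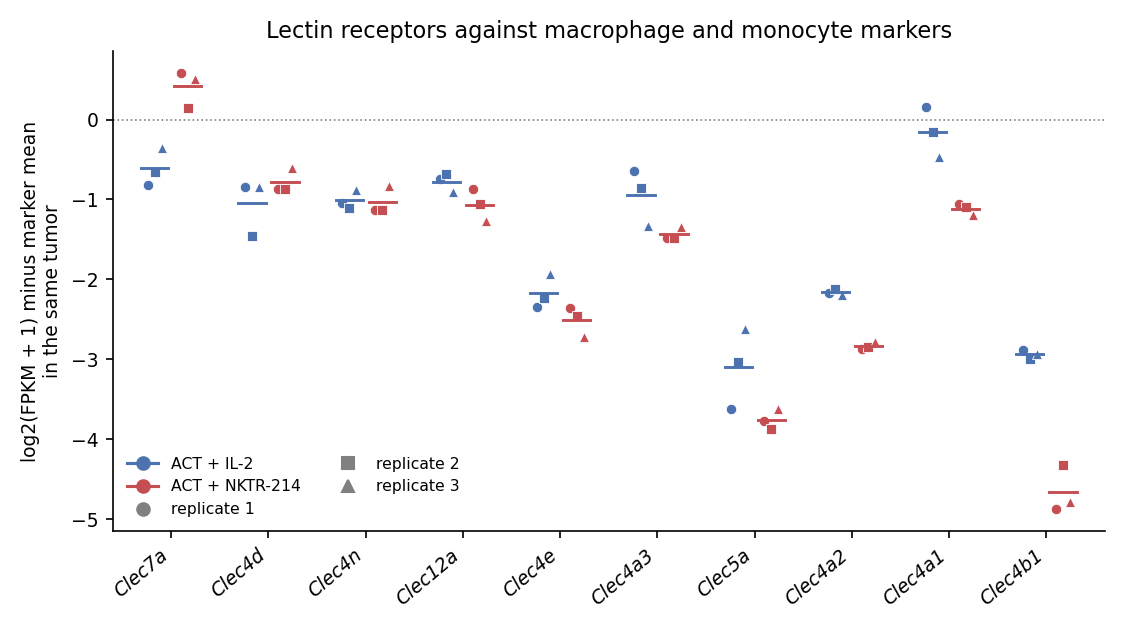
Log2(FPKM + 1) of each member minus the mean of 10 macrophage and monocyte markers in the same tumor, with a point for each tumor. Clec7a is the member whose ACT + NKTR-214 tumors all lie above its ACT + IL-2 tumors, and Clec4b1 shows the widest shift the other way, -1.72.

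Close relatives were compared within each tumor, for the 5 pairs of members with the highest protein identity. Clec4n and Clec4b1 are 60.7% identical over the global alignment, and the log2 fold change of Clec4n was larger by 1.70. Clec4a2 exceeded Clec4b1 (53.4% identical) by 1.05, Clec4a3 exceeded Clec4b1 (45.4%) by 1.23, and Clec4a3 exceeded Clec4a1 (51.8%) by 0.47. In these 4 pairs no tumor of a group reached into the range of the other, at the smallest exact permutation p of 0.1 (0.125 after Benjamini-Hochberg adjustment over 5 pairs). The pairs with Clec4b1 are not separate results, since they share this gene, which rests on about 5 to 48 reads per tumor. Of its 50-base windows, 8.68% also occur in Clec4a2. With a pseudocount of 0.1 the pairs without overlap numbered 3, since Clec4a3 and Clec4b1 then overlapped (difference 1.15, exact permutation p = 0.2). Clec4a3 and Clec4a2 (51.5%) differed by 0.18 with overlap (exact permutation p = 0.5). The least alike pair of all, Clec5a and Clec12a, shares 12.3% of residues. The sugar-binding motif EPN occurred in Clec4e and Clec4n, and WND in Clec4a2, Clec4b1, Clec4d, Clec4e and Clec4n, against 3.71 and 1.36% of all proteins.

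The adaptors and kinases that carry the signals of these receptors were counted next. Of 18 adaptors and kinases, 13 were higher, 0 were lower and the median log2 fold change was 1.17. Over all genes tested 20.7% were higher and 8.28% lower, with a median of 0.05, and each list below stands beside these values. The lists were chosen with earlier results of these data known. Hcst, which encodes the adaptor DAP10, had the highest log2 fold change (2.61, limma adjusted p = 1.72e-06), followed by Tyrobp (1.94), Malt1 (1.69), Vav1 (1.65), Fcer1g (1.48) and Syk (1.37). Tyrobp rose from 50.9 ± 25.3 to 188.7 ± 53.1 FPKM, Fcer1g from 67.7 ± 37.3 to 178 ± 54.5 and Syk from 6.44 ± 2.94 to 17.6 ± 3.94 (SD, n = 3 per group). Card9, named here after its values were seen, rose from 2.16 ± 1.07 to 5.73 ± 1.96 FPKM (limma adjusted p = 0.00166). Bcl10, its partner with Malt1, was not called, with a log2 fold change of 0.32. Hcst, Vav1 and Malt1 are also expressed by T cells.

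Of the 3 phosphatases that ITIMs recruit, Inpp5d (SHIP-1; log2 fold change 1.74) and Ptpn6 (SHP-1; 0.82) were higher, and Ptpn11 (SHP-2) measured -0.09 and was not called. Of 18 genes known to be induced by or to act after SYK and CARD9, 11 were higher and 0 lower, with a median of 0.73. Egr2 (1.97), Egr3 (1.73), Cxcl2 (1.51) and Cxcl1 (1.02) led this list by log2 fold change, Cxcl1 with overlap between the groups. T cell markers rose as well, with a median log2 fold change of 3.53, and which cells expressed the genes of this list was not tested. Of 9 ligand and partner genes 7 were higher, led by the Fc receptors Fcgr2b (2.28) and Fcgr3 (2.23) and the integrin chains Itgb2 (2.13) and Itgam (1.81), while Sap130, which encodes the ligand of Clec4e, measured -0.05 and was not called. Of 30 other C-type lectins 24 were tested, 17 were higher and 0 lower, with a median of 0.71. Mgl2 (2.61), Clec10a (2.31), Mrc1 (2.16) and Clec2i (1.36) led by log2 fold change. Mgl2, Clec10a and Mrc1 are lectins of macrophages and dendritic cells. Without ACT + IL-2 replicate 2 the genes called higher fell to 8 of the adaptors and kinases, 1 of the phosphatases, 6 of the downstream genes, 4 of the ligands and partners and 7 of the other lectins. Over all genes tested, the higher calls fell from 2940 to 2005 in that setting.

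**Figure D4:**
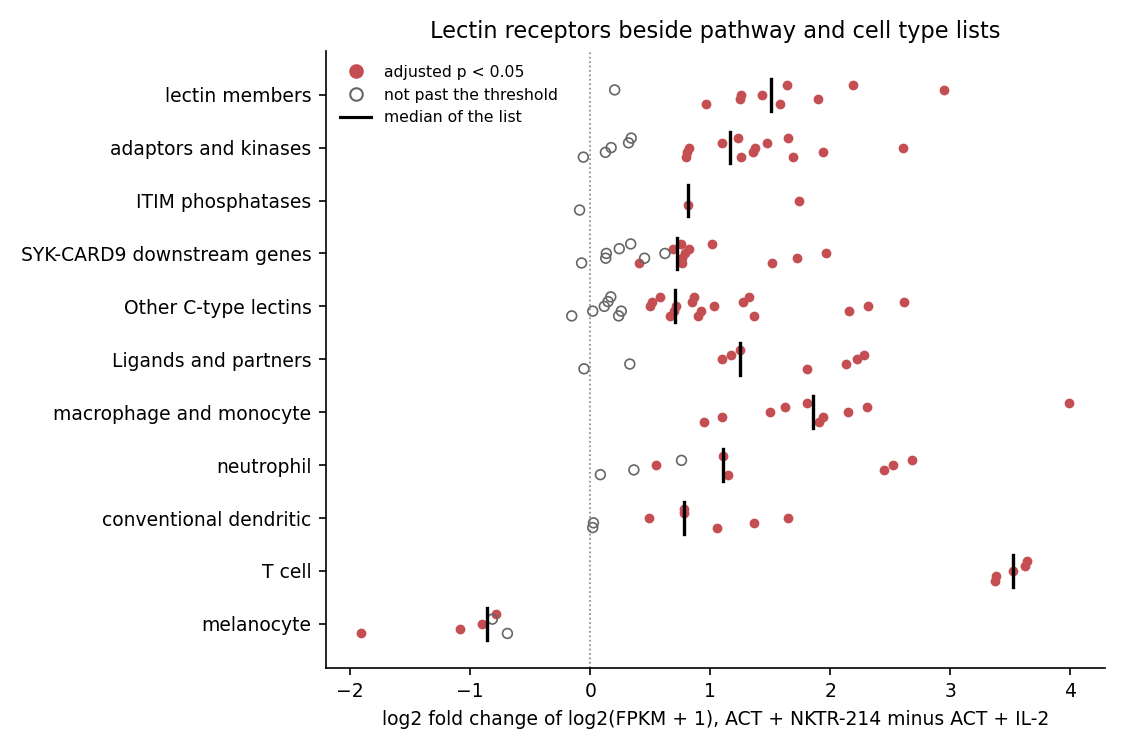
Log2 fold changes of the tested genes of each list, a point per gene, with the median of each list, for the members, their pathway lists and 5 of the cell type marker lists. The members have a median of 1.51, between the adaptors and kinases at 1.17 and the macrophage and monocyte markers at 1.86, and the melanocyte markers lie below 0 with a median of -0.86.

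Markers of several cell types moved with the lectins, where 20.7% of all genes tested were higher and 8.28% lower. The neutrophil markers were higher for 6 of 9 tested genes, with a summed FPKM of 5.35 to 12.1 with IL-2 and 32.0 to 71.1 with NKTR-214, and Ly6g was listed at 0 in 5 of 6 tumors. Conventional dendritic markers were higher for 6 of 8, T cell markers for 5 of 5 (8.57 to 20.9 against 119 to 254), NK cell markers for 2 of 4 and fibroblast markers for 3 of 3. No plasmacytoid dendritic or B cell marker was called, of 2 and 1 tested, and 1 of 3 mast cell and 1 of 3 endothelial markers were higher. Of 6 melanocyte markers, 4 were lower, and their summed FPKM was 5275 to 6747 with IL-2 and 2573 to 3653 with NKTR-214. ACT + IL-2 replicate 1, the highest of its group for all 10 lectins, also had the highest macrophage, neutrophil and T cell sums of its group. The same held for its dendritic, NK cell, mast cell, endothelial and fibroblast sums, and not for its B cell and melanocyte sums. The part of these cell types in the lectin values was not tested.

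The genes outside the set whose log2(FPKM + 1) followed the members most closely over the 6 tumors, by the median Pearson r with the 10 members among the 11548 genes whose mean FPKM was 1 or more, were Hpcal1 (0.979), Selplg (0.979), Nrros (0.979), Adap1 (0.978) and Lcp1 (0.978). These tumors share the 2 groups, which sets most of each value, and no p is given. All 5 were higher with NKTR-214, by 0.82 (Hpcal1) to 2.60 (Selplg) on the log2 scale.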

How the data were processed

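Whole-tumor RNA was sequenced in 6 samples, 3 per group, grouped by the treatment given in the labels. HISAT2 2.0.4 (version from the submitters' processing notes) and HTSeq were used by the authors for mapping to GRCm38 and counting. The deposited table holds linear FPKM, with a column for each tumor. Read counts were not used here. Depth was estimated from the spacing of low FPKM values times exon length; 32.9 to 37.0% of low values lay on the estimated step, against 6.09 to 6.74% on other steps, and read numbers are therefore approximate. FPKM is relative to each library, so an abundant class of RNA can move the rest.

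Values were taken as log2(FPKM + 1), and genes averaging 0.1 FPKM or more were tested with limma 3.58.1 in R 4.3.3 (lmFit, eBayes with trend) with Benjamini-Hochberg adjustment over 14172 genes and a threshold of 0.05. Signs are ACT + NKTR-214 minus ACT + IL-2. Single contrasts used exact two-sided permutation tests over the 20 groupings of 6 tumors. Levels against markers used means of log2(FPKM + 1). Proteins were translated from GENCODE vM21 with Biopython 1.88 and aligned globally with BLOSUM62; promoters came from RefSeq. Figures were made with matplotlib 3.10.9. The fit was tested on simulated data.

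The members and lists were chosen with earlier results of these data known. All 10 members are named, with up to 6 called genes of the adaptor and of the phosphatase list, up to 4 of every other list, by absolute log2 fold change, and the 5 genes most like the members. Alternatives tried were 0.1 as the pseudocount, a minimum FPKM of 1 or none, 75th percentile scaling, quantile normalization, a common total (TPM), no trend, no moderation, the replicate number as a block, other marker references, and each tumor left out in turn. P-values rest on mice of 1 experiment. Those of limma use a variance moderated over all genes tested, and not the spread of each gene between mice alone.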

Additional observations from a re-analysis of the deposited data

How the results depend on the processing

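The members called higher numbered 9 with a pseudocount of 0.1, with a minimum FPKM of 1 and with the replicate block, 8 under 75th percentile scaling, quantile normalization, TPM and no trend, and 7 with no filter. Without moderation of the variance 0 members and 0 genes of the pathway lists were called by limma, against 101 genes higher and 27 lower in all, although 7 members and 42 of 72 list genes were higher at an unadjusted p under 0.05. With 1 tumor left out, the members called ranged from 6 (without ACT + IL-2 replicate 2) to 10 (without ACT + IL-2 replicate 1 or ACT + NKTR-214 replicate 3), pathway genes called higher from 26 to 56 against 50, genes higher in all from 2005 to 3476 and genes lower from 636 to 1996. The 26 and the 2005 came without ACT + IL-2 replicate 2, the library with the lowest FPKM sum. The 10 members include Clec4b1, whose values still overlapped between the groups in both fits.

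Scaling changed the split of all calls, mostly through the lower ones. As reported 2940 genes were higher and 1173 lower (71.5% higher), against 3167 and 3864 under 75th percentile scaling (45.0%), 2681 and 4526 under quantile normalization (37.2%) and 2911 and 4439 under TPM (39.6%), and the median of all genes moved by -0.087, -0.144 and -0.127 on the log2 scale. Pathway genes called lower numbered 2, 2 and 4 there. Clec4b1 turned to -0.026 under quantile normalization, and ranged from -0.17 to 0.58 with 1 tumor left out, with -0.036 without ACT + IL-2 replicate 3. The members that exceeded the marker without overlap numbered 2 against Csf1r alone. The pairs without overlap numbered 4 to 5 with 1 tumor left out and 3 with a pseudocount of 0.1. Same-numbered tumors deviated from their group means with r of -0.21, -0.067 and 0.40, too few values to settle whether the numbers pair the tumors. The replicate block changed no call of a member, but lowered the limma adjusted p of Clec4a1 from 0.0384 to 0.000312. Clec4b1 rests on few reads, as few as 5 in a tumor, and whether depth or the spread between tumors limits it was not tested.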
